A study of Mus musculus with 4 samples.

Results

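The genes described here encode the protein subunits of the mitochondrial ribosome. They were chosen by name, as the genes whose symbol in the platform annotation starts with Mrpl or Mrps followed by a digit and which had at least 1 array spot with a value on all 4 arrays. The rule gave 78 genes of the 11791 genes measured, 49 of the large subunit (Mrpl) and 29 of the small subunit (Mrps), and no gene with such a symbol dropped out for lack of values. They were read from 121 spots. A further 11 spots, which belong to 10 of the genes, lacked a value on at least 1 array, and 1 spot annotated to Mrps25 together with another gene was not used.

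The mitochondrial ribosome translates the few proteins that mitochondrial DNA encodes, all of them core subunits of the respiratory chain and ATP synthase. Its RNA comes from mitochondrial DNA, but its proteins are made from nuclear genes in the cytosol and imported. Some of them are relatives of bacterial ribosomal proteins, and others are found only in mitochondrial ribosomes. Neural progenitors and newborn neurons of the embryonic telencephalon, the part of the brain that forms the cerebral hemispheres, build mitochondria as they divide and differentiate.

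Telencephalon RNA of 152F7 transgenic mouse embryos was compared with that of wild-type embryos, both at E12.5 (days after conception) and both on the FVB background. The 152F7 line is a single transgenic line that carries, on a yeast artificial chromosome, a piece of human DNA with DYRK1A, a kinase gene of the Down syndrome region, beside the mouse genome's own Dyrk1a. The series text speaks of pooled samples and dependent measurements, and the labels call the arrays technical replicates, so each genotype was counted as 1 RNA pool. The pools were hybridised together on 4 arrays that read 2 channels each. The wild-type pool carried the dye Cy5 and the 152F7 pool Cy3 on 2 arrays (WT in Cy5, replicates 1 and 2), and the dyes were exchanged on the other 2 arrays (152F7 in Cy5, replicates 1 and 2). In the array titles a genotype has the letter B where it carried Cy5 and A where it carried Cy3. Whether the letters mark separate preparations is not known here, and such a difference cannot be told apart from that of dye.

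All values are log ratios of the 2 channels of an array, read as log2 although the base is unstated, a negative value being a lower signal in the numerator. The deposited values do not settle which genotype is the numerator, so the pools are called numerator pool and denominator pool. The values were used unchanged in sign, as deposited, so that a gene with a true difference should keep its sign when the dyes are exchanged. Between dye orientations, however, the Pearson correlation was -0.661 to -0.596 over the 20923 spots that had a value on every array. This correlation alone does not settle the direction. The spots with no gene symbol carried much of the negative value, with correlations of -0.946 to -0.918. The 17767 spots with a symbol gave 0.037 to 0.116, but Spearman correlations of -0.162 to -0.088. Of 7 spots with a symbol over 1 in size on all arrays, 0 changed sign between orientations. Of 114 such spots without a symbol, 114 did. The comparisons are therefore also given with the arrays of WT in Cy5 turned in sign, which is the ratio of 152F7 over wild type if the values are Cy5 over Cy3. With 1 pool for each genotype no test between genotypes was possible, so no p-values are reported. The SDs are taken over the 4 arrays and hold technical variation and dye effects, but not the spread between embryos.

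Between 53.7% and 65.3% of the 44290 spots had a value on an array, and array medians lay between -0.007 and 0.007. Mouse Dyrk1a was at -0.140 and -0.010 with WT in Cy5 and at 0.132 and 0.128 with 152F7 in Cy5 (mean 0.03 ± 0.13), and whether its probes also read the human transgene was not tested. The pools differed in sex-linked genes, with Xist, which acts in X inactivation and is expressed in females, at -3.38 ± 0.11 (SD, n = 4 arrays) and the Y-linked Eif2s3y at 2.10 ± 0.33. They also differed in markers of other tissues. A gene was called higher or lower when it had the same sign on all 4 arrays and a mean of at least 0.1 in size, which is a 1.07-fold difference. By this rule all 7 measured lens and eye markers were higher in the numerator pool (median 0.87, range 0.28 to 1.21), as were 5 of 6 mesenchyme markers (median 0.27), 3 of 5 red cell markers (median 0.20), 2 of 4 choroid plexus markers (median 0.20), 2 of 4 myeloid markers (median 0.26), 2 of 6 neuron markers (median 0.05) and 1 of 5 endothelium markers (median 0.04), and none of these lists held a lower gene. Of the 7 measured telencephalon markers (median 0.08) 1 was higher (Lhx2) and 1 lower (Gsx2), and Gsx2 alone had a mean below 0. Of all genes 6.08% were called higher and 3.45% lower. In the turned reading the marker medians lay between -0.013 (red cell) and 0.049 (choroid plexus), with 0.029 for lens and eye. A ratio does not give the level of a marker in either pool. The part of these differences in the results below was not tested, and fewer cells of a type cannot be told apart from less RNA per cell.

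Few of the mitochondrial ribosomal protein genes differed by themselves, but most lay slightly on the same side of 0. Of the 78 genes 68 had a mean below 0, where 48.5% of all genes did, and 10 had a mean above 0, where 51.4% of all genes did. The median of the 78 means was -0.041, with medians of -0.062 and -0.070 on the arrays with WT in Cy5 and of -0.019 and -0.026 on those with 152F7 in Cy5. The SD of these 4 array medians was 0.025. The median of all 11791 genes was 0.002, with -0.012, -0.010, 0.022 and 0.015 on the same arrays. The ribosomal median thus lay below that of all genes by a similar amount on every array, with differences of -0.050, -0.060, -0.041 and -0.041. The quartiles of the gene means were -0.073 and -0.015, against -0.037 and 0.042 for all genes. The lowest mean was -0.158 and the highest 0.055, so no gene reached a 1.5-fold difference, which 0.0763% of all genes did in the higher and 0.00848% in the lower direction.

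**Figure D1:**
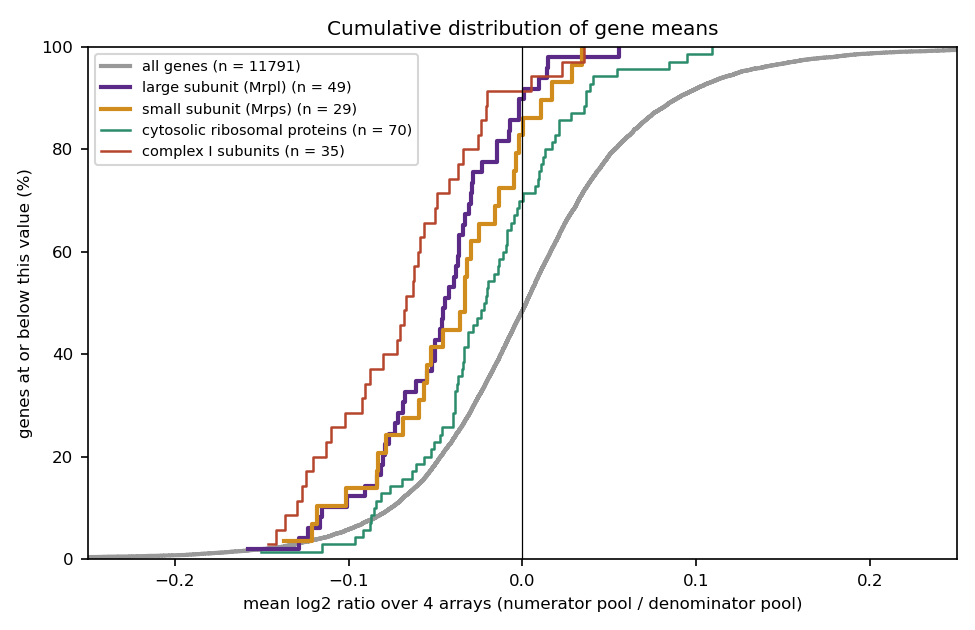
Share of genes (percent, vertical axis) with a mean log2 ratio over the 4 arrays at or below the value on the horizontal axis, for all genes, large-subunit genes, small-subunit genes, cytosolic ribosomal protein genes and complex I subunit genes. The curves of both mitochondrial subunits lie left of that of all genes, with medians of -0.045 and -0.033 against 0.002, and 114 genes lie outside the axis.

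This shift was not seen once the arrays of WT in Cy5 were turned in sign. Turning cancels any shift of similar sign and size on all arrays, so the turned reading cannot test it. The median of the 78 genes was then 0.018 and that of all genes 0.015, and 45 of the 78 means lay above 0, where 58.6% of all genes did, and 33 below 0, where 41.3% did. Array noise in the means was measured with 2 contrasts of replicates 1 and 2, in whose means genotype and dye cancel. They gave medians of -0.002 and 0.009 for the 78 genes, with 43 and 29 means below 0, where 49.8% and 52.9% of all genes were. In the second of them 49 of the 78 means were above 0, where 46.8% of all genes were.

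Of the 78 genes 6 were called lower in the numerator pool, where 3.45% of all genes were, and 0 were called higher, where 6.08% were. The 6 were Mrpl53, Mrpl54, Mrpl20, Mrps28, Mrpl46 and Mrpl39. In the noise contrasts 0 of the 78 were called in either direction. There the same-sign rule needs opposite deposited signs on replicates 1 and 2 of each orientation. The noise counts therefore do not give the share that noise would call in the values as deposited. Of all genes 0.178% were called higher and 0.170% lower in the first noise contrast, and 0.271% and 0.102% in the second. Without a demand on size, 17 of the 78 were below 0 on all 4 arrays, where 9.85% of all genes were, and 0 were above 0 on all 4, where 12.8% were. The first noise contrast had 4 of the 78 above 0 on all arrays and 0 below, where 2.54% and 1.83% of all genes were, and the second 1 and 1, where 1.80% and 2.08% were. In the turned reading 11 were called higher and 4 lower, where 9.07% and 4.63% of all genes were.

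Promoters are shown for the called genes that have an entry in the RefSeq promoter table (GRCm38.p6), to give the start regions of genes that lay low together. Each runs 5′ to 3′ on the strand of the gene, from 250 bases before the annotated start to 50 after it. Capitals mark matches on either strand to CCGGAAG (bound by ETS factors such as GABPA), GCGCATG (NRF-1), AAGATGG (YY1), CCAAT (NF-Y), GGGCGG (SP1) or TATAAA (the TATA box). GABPA and NRF-1 are known as activators of nuclear genes for mitochondrial proteins.
Mrpl53, chr6:83108858-83109157, plus strand: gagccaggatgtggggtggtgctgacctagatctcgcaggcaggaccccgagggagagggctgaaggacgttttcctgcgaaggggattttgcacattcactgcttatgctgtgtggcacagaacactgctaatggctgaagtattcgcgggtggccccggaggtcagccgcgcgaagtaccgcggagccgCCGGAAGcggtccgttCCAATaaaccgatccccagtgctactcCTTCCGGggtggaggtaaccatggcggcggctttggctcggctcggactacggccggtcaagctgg
Mrpl20, chr4:155802628-155802927, plus strand: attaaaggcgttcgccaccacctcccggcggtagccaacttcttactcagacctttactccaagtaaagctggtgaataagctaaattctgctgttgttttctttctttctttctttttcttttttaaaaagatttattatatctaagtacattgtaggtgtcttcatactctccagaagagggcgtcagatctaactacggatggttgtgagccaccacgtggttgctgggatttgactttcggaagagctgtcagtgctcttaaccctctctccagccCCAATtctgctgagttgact
Mrpl46, chr7:78783040-78783339, minus strand: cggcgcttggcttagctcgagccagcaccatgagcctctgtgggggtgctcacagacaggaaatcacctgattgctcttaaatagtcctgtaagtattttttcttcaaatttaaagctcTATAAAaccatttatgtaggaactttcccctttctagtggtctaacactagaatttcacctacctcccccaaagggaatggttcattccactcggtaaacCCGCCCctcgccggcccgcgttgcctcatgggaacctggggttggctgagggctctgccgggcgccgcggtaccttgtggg
Mrpl39, chr16:84735195-84735494, minus strand: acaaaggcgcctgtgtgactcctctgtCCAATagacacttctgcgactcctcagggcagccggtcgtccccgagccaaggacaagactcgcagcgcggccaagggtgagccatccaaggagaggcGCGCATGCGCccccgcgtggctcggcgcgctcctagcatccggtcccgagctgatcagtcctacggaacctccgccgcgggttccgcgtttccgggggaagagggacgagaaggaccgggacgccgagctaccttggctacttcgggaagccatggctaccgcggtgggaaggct
The promoter of Mrpl53 holds 2 ETS matches, 1 on each strand, with a CCAAT between them. In that of Mrpl39 the 2 NRF-1 matches overlap on opposite strands and form one run of capitals. Mrpl20 holds a CCAAT after its start and no other match, and Mrpl46 holds a TATAAA far from its start and 1 SP1 match.

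Mrpl53 encodes a large-subunit protein found in mitochondrial ribosomes only, and lies on chromosome 6. It was the lowest of the 78 genes, ranking 201st from the bottom of all 11791. Its values were -0.192 and -0.180 with WT in Cy5 and -0.189 and -0.070 with 152F7 in Cy5, a mean of -0.158 ± 0.059 or a 1.12-fold lower signal in the numerator pool. The orientations overlapped, and replicate 2 with 152F7 in Cy5 was nearest to 0. Mrps28, a small-subunit protein classed here as mitochondrion-specific, on chromosome 3, was as even, with -0.171 and -0.112 against -0.121 and -0.081 and a mean of -0.121 ± 0.037. These genes kept their sign and a similar size in both orientations.

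Mrpl54, a mitochondrion-specific protein of the large subunit, had -0.201 and -0.226 with WT in Cy5 and -0.049 and -0.039 with 152F7 in Cy5 (mean -0.129 ± 0.098). Mrpl20, a relative of bacterial protein L20, which binds the large ribosomal RNA early in assembly, had -0.180 and -0.187 against -0.085 and -0.042 (mean -0.124 ± 0.072). Both were lower on all arrays, and in both the orientations did not overlap. Mrpl46 and Mrpl39, mitochondrion-specific proteins of the large subunit, leaned the other way. Mrpl46 had -0.076 and -0.019 with WT in Cy5 and -0.136 and -0.236 with 152F7 in Cy5 (mean -0.117 ± 0.093). Mrpl39 had -0.116 and -0.023 against -0.090 and -0.175 (mean -0.101 ± 0.063). Mrpl39 stood just inside the limit of 0.1, and Mrpl24, the next gene in order, had a mean of -0.091 and a value above 0 on 1 array. Mrpl53, Mrpl54, Mrpl20 and Mrps28 stayed called whichever array was left out, with the orientations weighted equally. Mrpl39 lost its call without replicate 1 of WT in Cy5, and both Mrpl39 and Mrpl46 lost theirs without replicate 2 of 152F7 in Cy5. After turning, a gene below 0 on all arrays as deposited cannot be called, so none of the 6 was.

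The other 11 genes below 0 on all 4 arrays had means from -0.084 to -0.028. They were Mrpl1, Mrpl22, Mrpl23, Mrpl27, Mrpl41, Mrpl44, Mrpl47, Mrpl49, Mrps5, Mrps9 and Mrps16. Mrpl47, the lowest of them, had -0.095, -0.111, -0.0725 and -0.057 (mean -0.084 ± 0.024). Mrps9, a relative of bacterial protein S9, had -0.082, -0.112, -0.0615 and -0.0575 (mean -0.078 ± 0.025). For 21 of the 78 genes the mean was larger in size than the SD over arrays. The share of all genes for which this holds is not given here, so the count is a description only.

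Another 4 genes had a mean at or below -0.1 but not the same sign on all arrays. Mrps18c, one of a group of 3 related S18 proteins, had -0.255 and -0.332 with WT in Cy5 and -0.018 and 0.055 with 152F7 in Cy5 (mean -0.137 ± 0.186). Mrps10, a relative of bacterial protein S10, had -0.245, -0.137, -0.201 and 0.110 (mean -0.118 ± 0.158), so that replicate 2 with 152F7 in Cy5 stood apart. Mrpl48 had -0.279 and -0.296 against 0.089 and 0.025 (mean -0.115 ± 0.201). Mrps33 had -0.186 and -0.224 against -0.018 and 0.023 (mean -0.101 ± 0.122). In Mrps18c, Mrpl48 and Mrps33 the arrays with WT in Cy5 carried the low value.

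At the other end of the order no gene stood out. Mrpl15, a relative of bacterial protein L15 near the peptide-forming centre, had the highest mean, 0.055 ± 0.178, with -0.146 and -0.035 against 0.158 and 0.245. Mrps2, a relative of bacterial protein S2, followed at 0.034 ± 0.029, with -0.003, 0.026, 0.053 and 0.061. Mrps18a was at 0.029 ± 0.043, with 0.016 and 0.063 against 0.062 and -0.026. Mrps12, whose bacterial relative S12 lies at the decoding centre, was at 0.017 ± 0.126, with 0.163 and 0.082 against -0.082 and -0.095. Mrpl38 was at 0.015 ± 0.025, Mrpl16 at 0.014 ± 0.206, Mrps18b at 0.011 ± 0.102 and Mrpl34 at 0.010 ± 0.073. Of these 8 genes Mrps2 alone had a mean larger than its SD, and it was below 0 on 1 array.

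**Figure D2:**
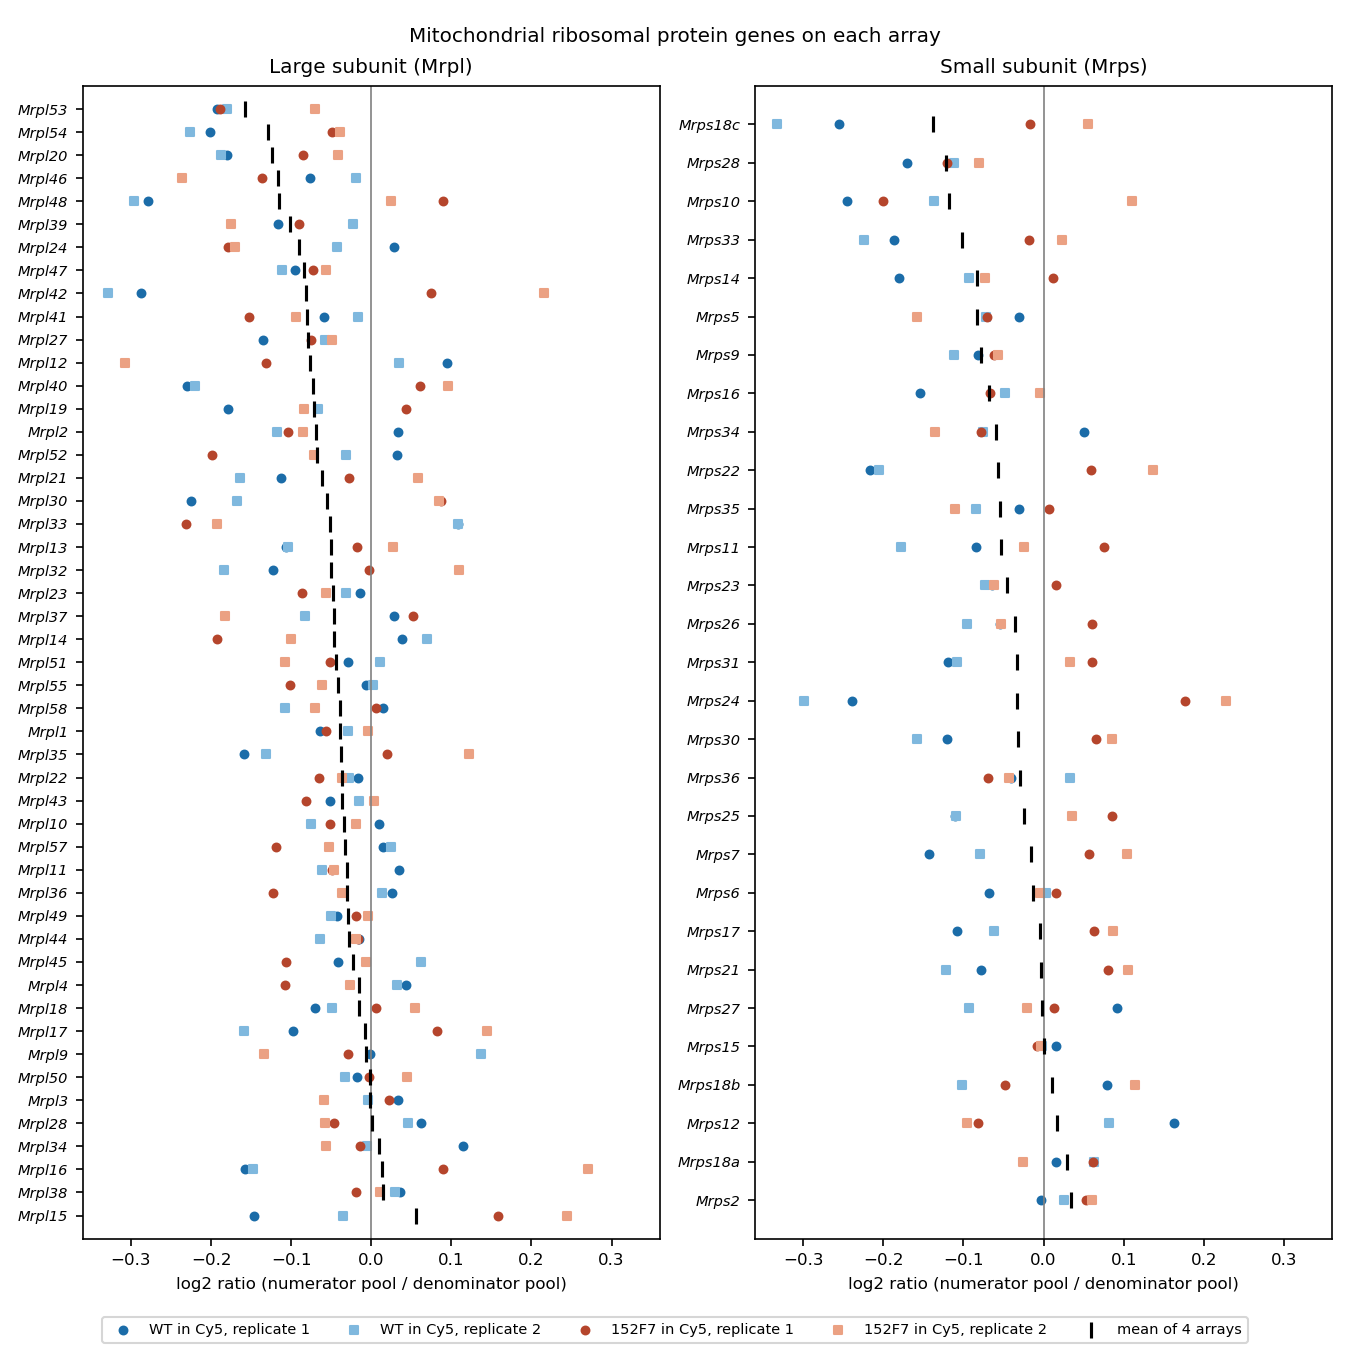
Log2 ratio of every mitochondrial ribosomal protein gene on each of the 4 arrays (coloured points) with the mean (black bar), genes ordered by mean, large subunit on the left and small subunit on the right. Means run from -0.158 for Mrpl53 to 0.055 for Mrpl15, and in many small-subunit genes the arrays with WT in Cy5 lie left of those with 152F7 in Cy5.

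The large and small subunits had similar medians but differed by dye orientation. The median of the 49 large-subunit genes was -0.045 and 44 of them had a mean below 0. The median of the 29 small-subunit genes was -0.033, with 24 below 0. The large-subunit median was nearly the same on every array, at -0.042, -0.043, -0.050 and -0.042 (SD 0.004). The small-subunit median was -0.082 and -0.093 with WT in Cy5 and 0.013 and -0.005 with 152F7 in Cy5 (SD 0.054). The large-minus-small difference was therefore 0.041 and 0.050 on the arrays with WT in Cy5 and -0.063 and -0.038 on those with 152F7 in Cy5. It averaged -0.002 ± 0.056, so the subunits did not differ beyond the spread between arrays. Of the 6 called genes 5 belonged to the large subunit and 1 to the small. They were 10.2% of the large-subunit and 3.45% of the small-subunit genes, beside 3.45% of all genes called lower. With the arrays of WT in Cy5 turned, the large-subunit median was -0.003 and the small-subunit median 0.033.

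A symbol does not always give the place of a protein. Mrps18a and Mrps30 sit in the large subunit of the mammalian mitochondrial ribosome, and Mrps36 is now known as an adaptor of the 2-oxoglutarate dehydrogenase complex, an enzyme of the citric acid cycle. These genes had means of 0.029 ± 0.043, -0.032 ± 0.125 and -0.030 ± 0.044. With the genes sorted by place, the medians were -0.042 for 51 large-subunit and -0.041 for 26 small-subunit genes. A further 4 measured genes encode ribosomal proteins under other names. Chchd1 was called lower at -0.123 ± 0.122, with -0.004 and -0.039 against -0.263 and -0.186. Dap3, a GTP-binding protein of the small subunit, was at -0.019 ± 0.061, Ptcd3, an RNA-binding protein of the small subunit, at -0.006 ± 0.067 and Gadd45gip1, of the large subunit, at 0.008 ± 0.088.

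Proteins with bacterial relatives and those specific to mitochondria, as classed here, had similar medians. The median was -0.037 for the 43 genes of the first kind, with 36 below 0 and 1 called lower (Mrpl20), and -0.046 for the 32 of the second, with 30 below 0 and 5 called lower. The called genes were 2.33% of the first kind and 15.6% of the second, beside 3.45% of all genes. Of all genes 48.5% had a mean below 0. Within the large subunit the medians were -0.038 for 28 bacterial-type and -0.046 for 21 mitochondrion-specific genes. Within the small subunit they were -0.033 for 15 and -0.046 for 11. Over both subunits the mitochondrion-specific median minus the bacterial-type median was 0.017, -0.023, 0.009 and -0.021 on the 4 arrays, so that it had no consistent sign. Turned, these medians over both subunits were 0.019 and 0.014.

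The arrays of an orientation resembled each other, and in these arrays an effect of dye cannot be told apart from a genotype difference in the turned reading. Across the 78 genes the Pearson correlation was 0.763 between the WT-in-Cy5 arrays, 0.628 between the 152F7-in-Cy5 arrays and -0.534 to -0.381 between the orientations, as a description over genes that share arrays and pools. Of the 78 genes 17 were below 0 on both arrays with WT in Cy5 and above 0 on both with 152F7 in Cy5, where 20.0% of all genes were. The opposite split was seen in 8 genes, where 10.8% of all genes showed it. The first split held 9 large-subunit and 8 small-subunit genes, and the second 7 and 1. The share of the genes that split by orientation was thus close to that of all genes. The difference between the orientations, 152F7 in Cy5 minus WT in Cy5, had a median of 0.036 over the 78 genes and of 0.029 over all genes, and a median of -0.006 for the large and 0.065 for the small subunit. Without replicate 2 of 152F7 in Cy5 the median over the 78 genes was 0.023.

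The widest differences between orientations were larger than any mean. Mrps24, which despite its number is the relative of bacterial protein S3, had -0.239 and -0.299 with WT in Cy5 and 0.177 and 0.228 with 152F7 in Cy5. Its mean of -0.033 ± 0.274 had the largest SD of the 78 genes. Mrpl42 had -0.288 and -0.328 against 0.074 and 0.216, a mean of -0.082 ± 0.268. Mrpl16 had -0.158 and -0.147 against 0.090 and 0.271. Mrpl33 ran the other way, with 0.108 and 0.108 against -0.231 and -0.193 and a mean of -0.052 ± 0.185. These 4 genes were picked for a wide difference between orientations, so the lack of overlap in them is no separate result. Of all genes 20.0% split in sign by orientation in the direction of Mrps24 and 10.8% in that of Mrpl33. The 152F7-in-Cy5 replicates of Mrpl16 and Mrpl42 differed more than the others. Mrpl12, a protein of the ribosomal stalk that also binds the mitochondrial RNA polymerase, had 0.095 and 0.035 against -0.131 and -0.307. With the arrays of WT in Cy5 turned, the means were 0.24 for Mrps24, 0.23 for Mrpl42 and -0.16 for Mrpl33.

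**Figure D3:**
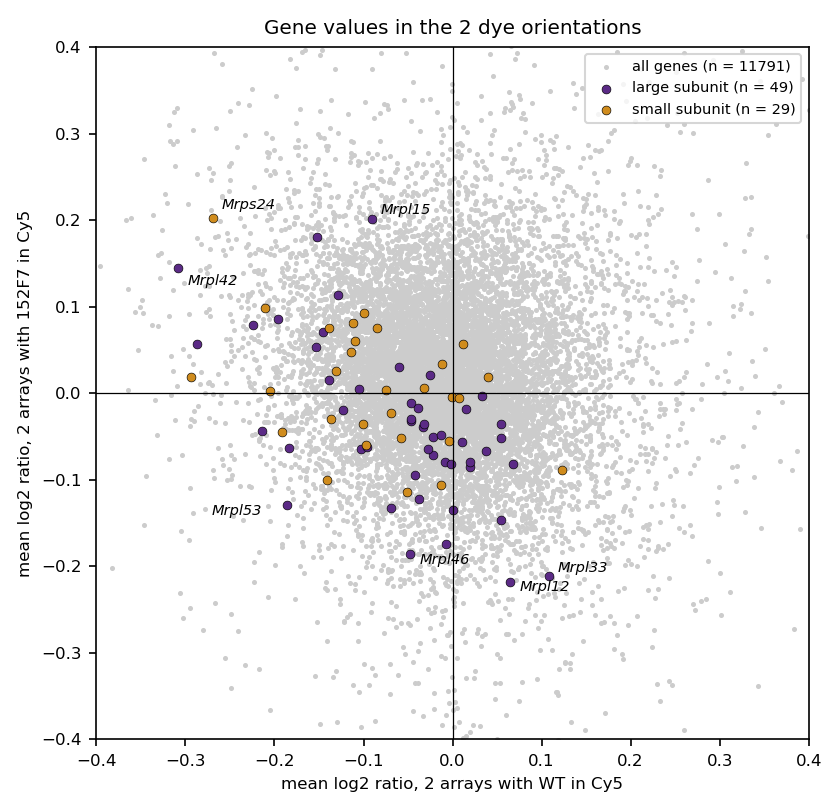
Mean log2 ratio of each gene on the 2 arrays with WT in Cy5 (horizontal axis) and on the 2 arrays with 152F7 in Cy5 (vertical axis), with all genes in grey and the mitochondrial ribosomal protein genes in colour. Mrps24 and Mrpl42 lie in the upper left quadrant and Mrpl33 and Mrpl12 in the lower right, and 130 genes lie outside the axes.

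Several spots of 1 gene gave a check on its value. Of the 121 spots, 97 had a mean below 0, and the median over spots was -0.041. Of the 31 genes with at least 2 spots, 18 had all spots below 0, 2 had all above 0 (Mrpl15 and Mrps2) and 11 had spots of both signs. The same shares over all spots and genes are not given here, so these counts only describe the ribosomal genes. The spot means of a gene spanned a median of 0.049, which is of the size of the shift itself. Across these 31 genes the first and last spot correlated at 0.220 in the mean as deposited and at 0.344 in the turned mean, whereas over 4352 genes the values were 0.383 and 0.081 (Pearson, as a description). The noise contrasts gave 0.205 and 0.252 over the 31 genes, so their spots separate the readings poorly. Over the 4352 genes the noise contrasts gave 0.060 and 0.048, near the turned value and below that as deposited.

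The widest of the genes with spots of both signs was Mrpl35, with spot means of -0.178, 0.026 and 0.041. Mrpl45, related to proteins that hold the ribosome at the inner membrane, had -0.095 and 0.049. Mrpl1 had -0.102, -0.041 and 0.027, although its gene value was below 0 on all 4 arrays. Mrpl3, a relative of bacterial L3 near the peptide-forming centre, had -0.059, -0.012, 0.0003 and 0.063. By contrast all 4 spots of Mrps5 lay below 0, from -0.194 to -0.016, as did the 3 of Mrps33, the 3 of Mrpl40 and the 2 of Mrps18c. Of the 6 called genes each had 1 spot only.

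**Figure D4:**
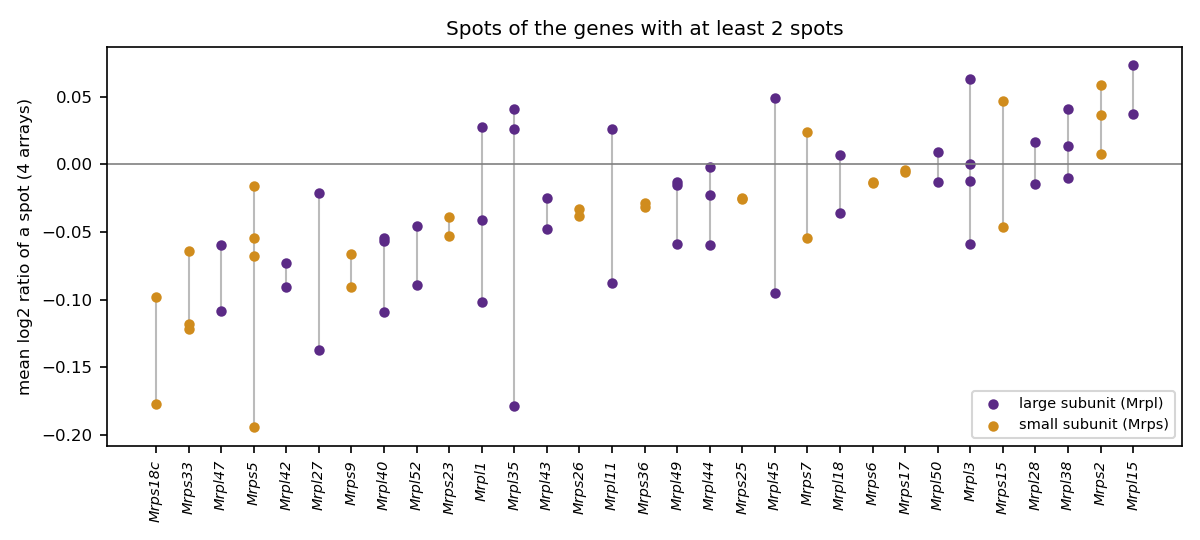
Mean log2 ratio over the 4 arrays of each spot (points) of the 31 genes with at least 2 spots, genes ordered by the mean of their spots and spots of a gene joined by a line. Mrpl35 and Mrps5 span the widest ranges, and 11 genes have spots on both sides of 0.

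Other lists of mitochondrial gene expression had medians between -0.035 and 0.0004, beside -0.041 for the mitochondrial ribosome. Of all genes 3.45% were called lower, 6.08% higher and 48.5% had a mean below 0. Of 23 genes of ribosome assembly and ribosomal RNA modification 2 were called lower and 0 higher (median -0.025, 17 below 0), namely Malsu1, which keeps the subunits apart during assembly, at -0.109 ± 0.045 and Fastkd2, which binds ribosomal RNA, at -0.102 ± 0.039. Of 16 translation factors 0 were called (median -0.035, 12 below 0). Of 17 mitochondrial aminoacyl-tRNA synthetases, which load tRNAs with amino acids, 0 were called (median 0.0004, 8 below 0). Of 18 genes of mitochondrial DNA expression and maintenance 3 were called lower (median -0.023), among them Twnk, the mitochondrial DNA helicase, at -0.147 ± 0.084 and Ssbp1, which binds single-stranded mitochondrial DNA, at -0.116 ± 0.056. Of 28 import and chaperone genes 2 were lower, Tomm7 at -0.128 ± 0.068 and Timm17a at -0.123 ± 0.021, both parts of the import channels (median -0.031). Of 9 regulators of mitochondrial content 1 was higher, Pprc1, a coactivator related to PGC-1, at 0.164 ± 0.030 (median -0.025).

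The medians of the synthetases, the assembly genes and the import genes lay above that of the 78 genes on all 4 arrays, by 0.036 to 0.059, 0.009 to 0.058 and 0.010 to 0.031. Those of translation factors and content regulators lay above it on 3 arrays, and that of the DNA expression genes on 2. Turned, the medians were 0.020 for assembly genes, 0.010 for translation factors, 0.019 for synthetases, 0.037 for DNA expression genes, 0.006 for import genes and -0.002 for content regulators, so that the order of the lists was not the same in both readings.

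The median of complex I genes was below that of the mitochondrial ribosome and the median of cytosolic ribosomal genes above it. Complex I of the respiratory chain holds subunits that mitochondrial ribosomes make beside its nuclear-encoded ones. Its nuclear genes were taken by symbol (Nduf, then a, b, c, s or v and a number), and the place of each protein was not checked. Of the 35 measured genes with such a symbol 7 were called lower and 32 had a mean below 0 (median -0.067, SD of array medians 0.031). Ndufa5 was at -0.147 ± 0.022 and Ndufc1 at -0.142 ± 0.015. Of 70 cytosolic ribosomal protein genes 2 were called lower and 49 had a mean below 0 (median -0.022, SD 0.013), Rpl26 at -0.151 ± 0.162 and Rpl7 at -0.115 ± 0.078. The called genes were 20% of the complex I and 2.86% of the cytosolic ribosomal genes, beside 3.45% of all genes called lower. On the same arrays the complex I median minus that of the 78 genes was -0.031, -0.029, -0.035 and -0.008, and the cytosolic ribosomal median minus that of the 78 was 0.037, 0.039, 0.002 and 0.026. Each difference had 1 sign on all 4 arrays, though each was near 0 on a different array. With the arrays of WT in Cy5 turned, the medians were 0.030 for complex I and 0.015 for the cytosolic ribosome, beside 0.018 for the mitochondrial ribosome.

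**Figure D5:**
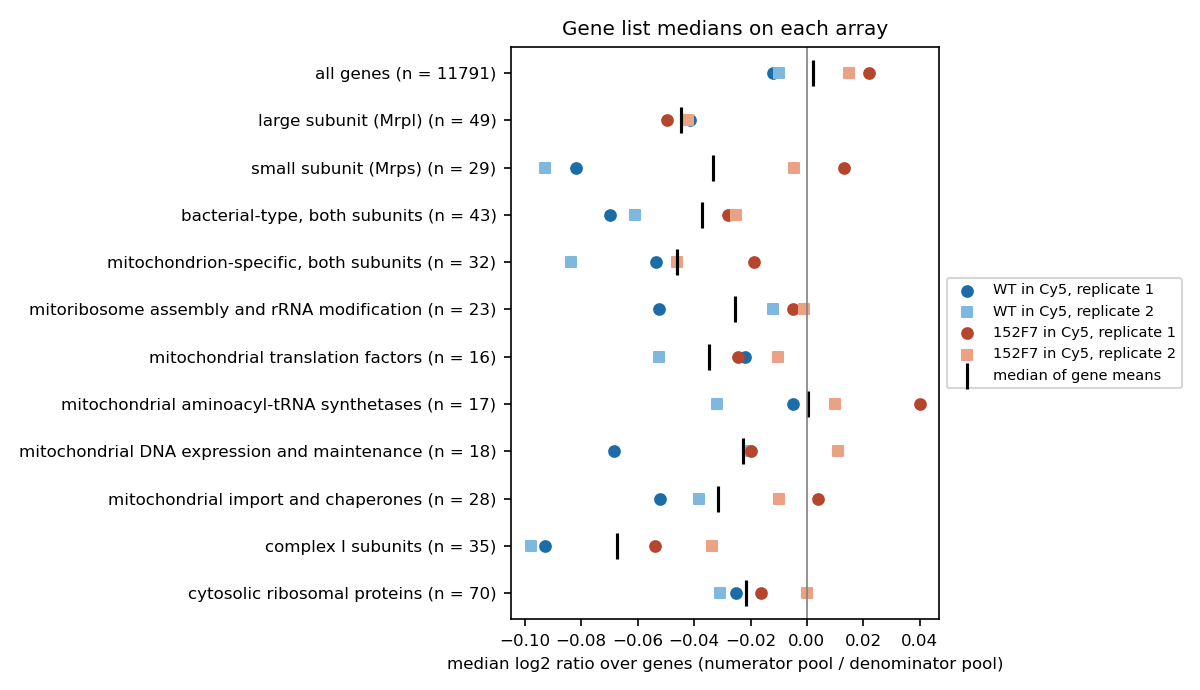
Median log2 ratio over the genes of each list on each of the 4 arrays (coloured points) and median of the gene means (black bar). The large-subunit medians lie together between -0.050 and -0.042, while the small-subunit medians split by dye orientation from -0.093 to 0.013.

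The genes whose 4 array values lay nearest to the mean profile of the 78 genes, by Euclidean distance over the 4 arrays, were Tmem106b, Pheta1, Anapc11, Nr1i3 and Egln1. Their distances were 0.014 to 0.023 and their means -0.053 to -0.038. None of the 5 is a ribosomal gene.

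In the genome the 78 genes are spread over 17 chromosomes, with at most 11 on a chromosome (number 11) and at least 1. Their median length is 7690.5 bases, against 23471 for all measured genes with a length. Over all 11765 such genes the mean ratio rose with gene length at a Spearman correlation of 0.167, and over the 78 genes it was -0.064, both as descriptions across genes. Promoters were matched by gene identifier for 69 of the 78. CCGGAAG was found in 34.8% of them, against 18.1% of 9573 measured genes and 9.14% of all 27025 promoters. AAGATGG was found in 18.8%, against 7.34% and 6.46%, and GCGCATG in 11.6%, against 7.16% and 4.03%. GGGCGG was found in 49.3%, against 65.2% and 35.9%, CCAAT in 39.1%, against 39.4% and 38%, and TATAAA in 5.8%, against 7.52% and 14.2%. The median ratio of genes with CCGGAAG was -0.036 and of those without it -0.042, and for GCGCATG the medians were -0.035 and -0.039.

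Of the 69 genes 26 (37.7%) have the start of another gene on the opposite strand within 1000 bases upstream, which 18.1% of the 9573 genes have. This property was looked at after the values had been seen. Mrpl46 and Mrps11 are such neighbours of each other, with starts 42 bases apart, at means of -0.117 and -0.053. Of the 21 neighbours with a value 14 had a mean below 0 and their median was -0.027, beside -0.046 for the 21 ribosomal genes. Called neighbours were Twnk beside Mrpl43, Psma2, a proteasome subunit, beside Mrpl32 at -0.139, and Mrpl46 itself. Of all genes 3.45% were called lower and 48.5% had a mean below 0. The 43 ribosomal genes without such a neighbour had a median of -0.034.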

How the data were processed

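The deposited table holds 1 log ratio per spot and array, and these values were read as log2. Total RNA was linearly amplified from 1 µg and labelled with Cy5 or Cy3, per the labels' protocols. The scanner, its software, the normalization, the base and direction of the logs and any filter were not given in sources used here. Channel intensities were not used, so signal over background is unknown. The largest value has a size of 5.76. Spots were named by the platform annotation and checked by Entrez identifier against the GRCm38.p6 gene table, where all 78 genes matched.

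Spots with values on all 4 arrays were averaged per gene. Precision is limited by the small number of arrays. The call rule was run on simulated data whose noise cancelled over the arrays of each gene. That run could therefore not show false calls. The genes, lists and direction were chosen with earlier results of these data known. Genes named with values are the 8 lowest and 8 highest, those called, the 5 widest between orientations, the 4 widest with spots of both signs, and in each related list the 2 largest called; others were chosen after their values were seen. Alternatives changed direction, log base, arrays, filters, spot summary, centring and call size. Python 3.11.15 and pandas 2.3.3 were used.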

Additional observations from a re-analysis of the deposited data

Results flagged for a closer look

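Some results had opposite signs in the 2 dye orientations, with both arrays of an orientation above 0 and both of the other below. The differences below are 152F7 in Cy5 minus WT in Cy5 and were not tested. The large-minus-small subunit difference shifted by -0.0953 between orientations, from 0.0452 to -0.05, and the median of the mitochondrial aminoacyl-tRNA synthetases by 0.0435. Single genes were looked at here only if the naming rules above had picked them. Among them the difference was 0.472 for Mrps24, 0.453 for Mrpl42, 0.344 for Mrpl48, 0.333 for Mrpl16, 0.292 for Mrpl15, 0.216 for Mrpl35, -0.211 for Mrps12 and -0.32 for Mrpl33. Genes outside the rules split as widely, such as Mrps22 (0.309) and Mrpl40 (0.303). Of the 78 genes 17 were above 0 with 152F7 in Cy5 only, where 20.0% of all genes were. Another 8 were above 0 with WT in Cy5 only, where 10.8% were.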

How the results depend on the processing

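No paired analysis was possible because the results come from no test, with 1 pool for each genotype. Leaving out 1 array at a time, with orientations weighted equally, gave medians of -0.0447 to -0.0363 for the 78 genes and of -0.0501 to -0.0361 relative to all genes, 63 to 68 means below 0, 6 to 9 genes called lower, 0 called higher, a large-minus-small difference of -0.0242 to 0.0041, and an orientation difference of 0.0229 to 0.0389. Of all genes 3.85% to 4.76% were called lower, 6.77% to 7.16% higher and 46.4% to 50.1% lay below 0 with 1 array left out. The complex I median was then -0.0748 to -0.0618 and the cytosolic ribosomal median -0.0328 to -0.0168.

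With the arrays of WT in Cy5 turned, the median of the 78 genes was 0.018, 0.0035 above that of all genes, with 33 means below 0 and 11 genes called higher. Of all genes 41.3% lay below 0 and 9.07% were called higher in that reading. The medians were then 0.0203 for assembly genes, 0.0098 for translation factors, 0.0303 for complex I and 0.015 for cytosolic ribosomal proteins, and the means 0.0283 for Mrpl53, 0.0848 for Mrpl54, 0.06 for Mrpl20, 0.0203 for Mrps28 and 0.0083 for Mrpl1. With WT in Cy5 alone 29 genes were called lower and 2 higher, where 15.4% and 11.3% of all genes were, and the large-minus-small difference was 0.0577. With 152F7 in Cy5 alone 12 were lower and 5 higher, where 11.4% and 19.8% of all genes were. Both counts rest on fewer arrays. Read as natural logs, 11 were lower, where 6.01% of all genes were, the median relative to all genes was -0.0617 and the orientation difference 0.0519. Centring arrays on named genes made the orientation difference 0.0065. Counts of lower genes were 12 at a call size of 0.05, 0 at 0.2 and 10 with no demand on sign, where 7.97%, 0.483% and 5.81% of all genes were lower. With the spot nearest to 0, Mrpl1 was at 0.0273. Other alternatives left the median, counts and subunit difference within the spread between arrays or 1.5 times the count.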
